A study of Rattus norvegicus with 12 samples.

Results

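Them5, Gulo, Gstm7 and Cadps were the 4 genes with the largest falls after estradiol among the 14506 genes named on these rat uterus arrays. They were chosen by their log2 difference between rats given estradiol and rats given vehicle, 6 rats in all, and each was read from 1 probe set that names it alone. Their values in the comparison that chose them are given as a description with no test, and the remaining rats supplied the difference that was tested. The SE and p of that test use the spread over all 12 arrays. The 12 female Lewis rats were ovariectomized young adults, so every group, controls included, lacked ovaries. The vehicle group received DMSO, the E2 group 17β-estradiol (E2) at 4 µg per kg per day, and the 3-MC group 3-methylcholanthrene (3-MC) at 15 mg per kg per day. The E2+3-MC group received both compounds at those doses. Dosing ran for 3 days, the uterus was taken 24 h after the last dose, and each of the 4 groups held 3 rats with 1 array per rat.

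The uterus of an ovariectomized rat is thin and quiescent, and E2 acts on it through nuclear estrogen receptors that raise the transcription of many genes and lower that of others. 3-MC is a polycyclic aromatic hydrocarbon and a ligand of AhR, the aryl hydrocarbon receptor, which switches on enzymes of foreign compound metabolism. The 4 genes belong to unrelated pathways. Them5 encodes a mitochondrial acyl-CoA thioesterase, Gulo encodes L-gulonolactone oxidase, the last enzyme of vitamin C (ascorbate) synthesis in rats, Gstm7 encodes a glutathione transferase of the mu class, and Cadps encodes a protein that primes dense-core vesicles for calcium-triggered release.

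The promoters are shown because the 4 genes were low in the same rats, and because the motifs of the receptors that E2 and 3-MC act on can be looked for in them. RefSeq's promoter table for the rat build GRCr8 matched 3 of the 4 genes: Them5 (chr2:184669572-184669821, plus strand), Gstm7 (chr2:198260320-198260569, minus strand) and Cadps (chr15:14720476-14720725, plus strand). Each sequence below is the 250 bases before the annotated start, 5′ to 3′ on the gene's strand, with motif matches in capitals.
Them5 promoter: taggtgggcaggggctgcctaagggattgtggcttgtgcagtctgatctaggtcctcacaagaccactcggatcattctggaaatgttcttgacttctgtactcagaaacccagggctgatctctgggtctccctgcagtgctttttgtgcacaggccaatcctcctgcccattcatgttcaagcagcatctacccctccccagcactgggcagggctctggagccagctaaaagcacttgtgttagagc
Gstm7 promoter: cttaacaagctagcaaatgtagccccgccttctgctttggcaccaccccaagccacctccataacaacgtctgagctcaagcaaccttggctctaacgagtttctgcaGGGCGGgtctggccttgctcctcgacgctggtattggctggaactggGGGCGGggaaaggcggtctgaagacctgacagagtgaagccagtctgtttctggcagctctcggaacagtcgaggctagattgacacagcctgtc
Cadps promoter: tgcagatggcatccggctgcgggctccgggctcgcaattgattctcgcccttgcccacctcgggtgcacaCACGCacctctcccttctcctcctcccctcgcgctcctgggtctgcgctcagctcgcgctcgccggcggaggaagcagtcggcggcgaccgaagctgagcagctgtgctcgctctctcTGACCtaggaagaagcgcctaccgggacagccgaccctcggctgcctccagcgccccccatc

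Both strands were searched for 4 motifs. The full estrogen response element, GGTCANNNTGACC, matched none of the 3 windows, and it was found in 0.0239% of the 33469 rat promoters of the same length. Its single arm, GGTCA, matched Cadps once, as TGACC on the minus strand at 62 to 58 bases before the start, and 35.4% of all promoters hold it. The core of the AhR element, GCGTG, also matched Cadps once, as CACGC on the minus strand at 180 to 176 bases before the start, and 25.9% of all promoters hold it. The GC box, GGGCGG, matched Gstm7 at 142 to 137 and at 95 to 90 bases before the start, and 30.5% of all promoters hold it. The Them5 window held none of the 4. GC content was 68.8% in the Cadps window, 56.8% in that of Gstm7 and 54.0% in that of Them5. The single arm and the core are short enough to be common, the arm is contained in the full element, and a match or its absence in this window says nothing about binding.

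Levels are the deposited linear intensities. Each difference was taken between values of log2(intensity + 16), a scale that understates the changes of dim genes. The dimmest 30% of genes by their mean over all arrays, under 6.44 on that scale or an intensity of 71.0, were left out, which kept 10154 genes. All 4 genes passed through their vehicle and 3-MC levels: their mean was under that limit in the E2 group for 4 of 4 and in the E2+3-MC group for 3 of 4, and since a gene that passes only through its high groups has to differ, no count over the genes that passed is used as support. Median intensity ranged from 86.3 to 124 over the 12 arrays, and the array of vehicle rat 1 had the widest spread between quartiles (2.70 against 1.87 to 2.35 on the log2 scale). Estradiol's known uterine targets moved as a check of the labels: C3, a complement protein that E2 induces in rat uterine epithelium, read 33.0 to 59.5 in vehicle rats and 5448 to 6741 in E2 rats. The tissue label was checked against markers, and 13 of 13 myometrial smooth muscle, 14 of 14 endometrial stroma and 14 of 15 epithelial markers measured had a mean over all arrays above the dim limit.

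Them5 had an intensity of 1864, 1055 and 972 in the 3 vehicle rats and 8.03, 4.69 and 12.4 in the E2 rats. It read 1157, 930.0 and 1191 in the 3-MC rats and 11.6, 49.7 and 19.9 in the rats given both compounds. Every rat without E2 was above every rat with E2, and rat 2 of the E2+3-MC group was the highest of the 6 treated with E2. Over the whole array limma called 1842 of 10154 genes (18.1%) for E2 minus vehicle, and in 17.1% every E2 rat lay below every vehicle rat, but this comparison chose the genes, so nothing is read from these shares. E2 minus vehicle was -5.70 ± 0.29 (log2 difference ± SE, n = 3 rats per group), a 52.0-fold fall on the offset scale, and the mean intensities differed by a ratio of 155. The offset and the dim E2 readings set that size, since the vehicle mean stood at 3.85 and the E2 mean at -1.85 relative to the dim limit on the log2 scale.

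Gulo had an intensity of 925, 450 and 429 in the vehicle rats and 10.2, 14.8 and 14.02 in the E2 rats. In the 3-MC rats it read 610, 369 and 411, and with both compounds 22.2, 44.3 and 23.2. The 2 sets with and without E2 did not overlap, vehicle rat 1 and 3-MC rat 1 were the highest of their groups, and the E2+3-MC rats all stood above the E2 rats. E2 minus vehicle was -4.32 ± 0.28, a 20.0-fold fall on the offset scale. Rats, unlike humans, keep a working Gulo gene and are known to make ascorbate chiefly in the liver.

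Gstm7 had an intensity of 1806, 1125 and 1112 in the vehicle rats and 42.4, 38.2 and 20.7 in the E2 rats. It read 1391, 862 and 1213 in the 3-MC rats and 145, 381 and 65.6 in the rats given both. The E2+3-MC rats lay between the E2 rats and the rats without E2, above every one of the former and below every one of the latter, and their highest reading was 5.81 times their lowest. E2 minus vehicle was -4.77 ± 0.40, a 27.3-fold fall on the offset scale. Its SE was the largest of the 4.

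Cadps had an intensity of 334, 350 and 401 in the vehicle rats and 15.1, 6.84 and 7.22 in the E2 rats. It read 520.5, 312 and 311 in the 3-MC rats and 26.2, 63.2 and 14.9 in the rats given both. Vehicle rat 1, the highest of its group for the other 3 genes, was the lowest of its group for Cadps. E2 minus vehicle was -3.89 ± 0.29, a 14.8-fold fall on the offset scale. The next called gene in order of fall, with groups that did not overlap, was Scd at -3.64 ± 0.88, so Cadps stood just inside the choice and Scd just outside it.

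**Figure D1:**
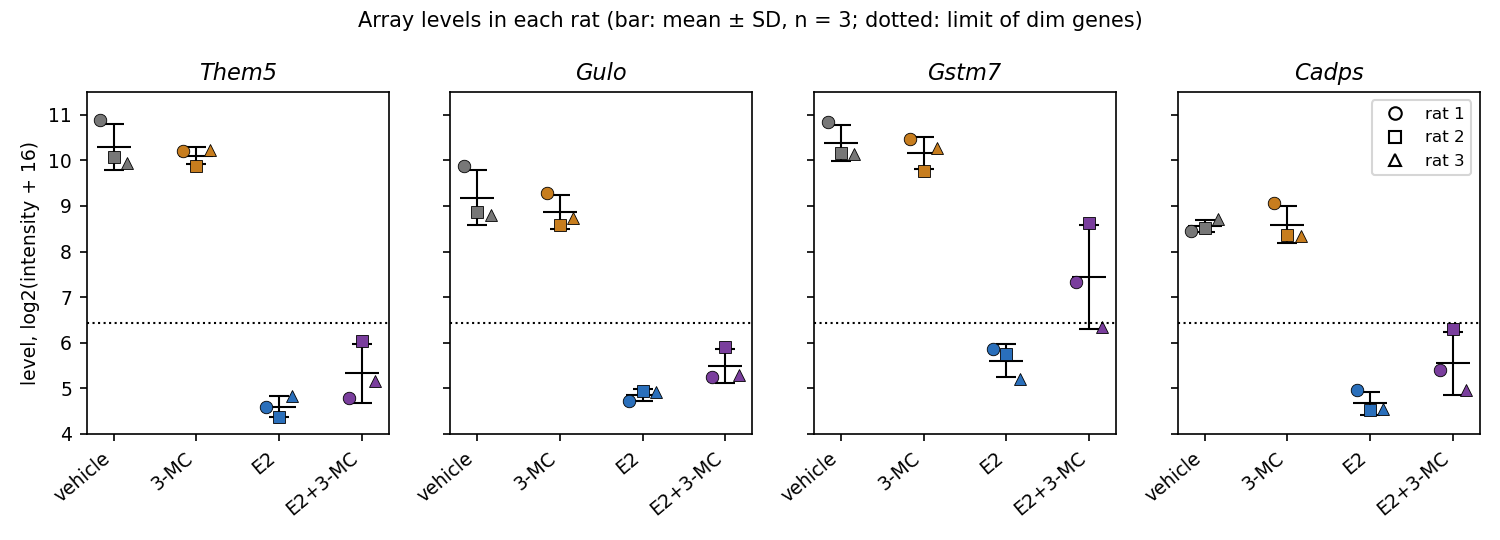
Level of each gene in each rat, as log2(intensity + 16), in the 4 groups. Circles, squares and triangles are rats 1, 2 and 3 of a group (the numbers do not link rats across groups), bars give the mean ± SD (n = 3), and the dotted line is the limit of dim genes at 6.44. All 4 genes are high in vehicle and 3-MC rats and low in E2 rats, and rat 2 of the E2+3-MC group is the highest of that group in every panel.

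The fall with E2 was then tested as a difference among the 6 rats outside the choice, those given 3-MC with and without E2. Each gene was tested singly, and each was called lower, with E2+3-MC rats that lay wholly below the 3-MC rats. The count of 4 adds no support of its own, since the genes passed the filter through their high groups. In that comparison limma called 834 of 10154 genes (8.21%), 141 of them lower (1.39%), and in 11.6% of genes every E2+3-MC rat lay below every 3-MC rat. After quantile normalization 1267 genes were called lower (12.5%) and 1385 higher, and without vehicle rat 1 437 were called lower (4.30%) and 1739 higher. Them5 fell by 4.78 ± 0.29 on the log2 scale (27.4-fold, limma adjusted p = 7.86e-09) and ranked 1 of all genes tested from the lowest difference. Gulo fell by 3.38 ± 0.28 (10.4-fold, limma adjusted p = 3.15e-07) and ranked 2. Cadps fell by 3.04 ± 0.29 (8.22-fold, limma adjusted p = 1.58e-06) and ranked 4, after Wif1, an inhibitor of Wnt ligands, at -3.23. Gstm7 fell by 2.73 ± 0.40 (6.63-fold, limma adjusted p = 0.000232) and ranked 5. The adjustment is Benjamini-Hochberg over all genes tested. The SE and p rest on a spread estimated over all 12 arrays, so the rats of the choice enter them, though not the differences. From the 6 arrays of the comparison alone, the SE was 0.24 for Them5, 0.21 for Gulo, 0.28 for Cadps and 0.39 for Gstm7. The limma adjusted p of that fit was 5.81e-09, 3.855e-08, 2.43e-06 and 0.000157 in the same order. The E2+3-MC means of Them5, Gulo and Cadps lay under the dim limit, so these folds and ranks depend on the offset: with an offset of 1 the differences were -5.52, -3.94 and -3.61, and with 64 they were -3.68, -2.47 and -2.17. Relative to the dim limit alone, the 3-MC means of those 3 genes stood at 3.66, 2.43 and 2.15 on the log2 scale. In whole uterus RNA, fewer cells of a type and less RNA per cell cannot be told apart, here and in the results that follow.

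Each of the 4 falls was smaller in the presence of 3-MC by value. The difference between the falls was 2.04 ± 0.57 for Gstm7, 0.94 ± 0.39 for Gulo, 0.92 ± 0.41 for Them5 and 0.85 ± 0.41 for Cadps, where the median over all genes was 0.19, and -0.0006 after quantile normalization. After quantile normalization the differences were 1.65, 0.61, 0.60 and 0.63 in the same order. These values use the rats that chose the genes and so carry no test, and over all 10154 genes limma called none for this difference (298 at an unadjusted p under 0.05). Since the genes were chosen for the size of one of the falls, the difference is not a measure of an effect of 3-MC.

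With 3-MC alone, the 4 genes overlapped with their vehicle readings. The order of the group means from the highest was vehicle, 3-MC, E2+3-MC and E2 for Them5, Gulo and Gstm7, and 3-MC, vehicle, E2+3-MC and E2 for Cadps, and the first pair in this order overlapped for all 4. 3-MC minus vehicle was -0.19 for Them5 (95% interval -0.81 to 0.43), -0.31 for Gulo (-0.90 to 0.28), -0.21 for Gstm7 (-1.06 to 0.64) and 0.04 for Cadps (-0.57 to 0.64). The vehicle rats are those of the choice, so the values are a description. Limma called 0 genes for 3-MC minus vehicle over the whole array (82 at an unadjusted p under 0.05). Cyp1a1, the standard AhR target, was under the dim limit in every group, with mean levels of 5.32 in vehicle, 5.40 in 3-MC, 5.12 in E2 and 5.37 in E2+3-MC rats.

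Among rats given E2, those also given 3-MC had the higher mean for all 4 genes. E2+3-MC minus E2 was 1.83 for Gstm7, 0.88 for Cadps, 0.73 for Them5 and 0.63 for Gulo, against a median of 0.15 over all genes. After quantile normalization, which brought that median to -0.01, the values were 1.62, 0.73, 0.59 and 0.43. For Gstm7 and Gulo every E2+3-MC rat was above every E2 rat, as in 16.7% of all genes, and for Them5 and Cadps the groups overlapped. Limma called 0 genes in this comparison (937 at an unadjusted p under 0.05), and it shares its E2 rats with the choice of the 4 genes.

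Rat 2 of the E2+3-MC group held the highest reading of its group for 4 of 4 genes, at 49.7 for Them5, 44.3 for Gulo, 381 for Gstm7 and 63.2 for Cadps. The same rat had the lowest C3 of its group (3979, against 4767 and 6606), the lowest mean of 15 epithelial markers (8.77, against 9.28 and 9.49) and the highest mean of 14 adipocyte markers (8.85, against 7.86 and 7.42). Their part in the readings of the 4 genes was not tested. In E2+3-MC against 3-MC, Gstm7 was at -3.33 without that rat and at -2.19 without rat 3, the lowest of the group, and it was called in both cases.

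The deviations of single rats from their group means were shared between the genes to different degrees. Over the 12 arrays, Pearson's r of these deviations was 0.81 for Them5 with Gulo and 0.81 for Gstm7 with Cadps. It was 0.65 and 0.66 for Gstm7 with Them5 and with Gulo, and 0.46 and 0.43 for Cadps with Them5 and with Gulo. The points share arrays and their normalization, and the values are a description.

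The pathway of Gstm7 was examined first. Glutathione transferases attach glutathione to reactive compounds, and the mu class genes lie together on chromosome 2. Of a list of transferases without Gstm7, 8 of 15 tested genes fell with E2 against vehicle (9.44% of all genes tested were called lower) and 0 rose (8.7% were called higher; 1 of the 15 was higher at an unadjusted p under 0.05). The median difference of the 15 was -0.87, against -0.11 for all genes. The largest falls within the list were those of Gstm1 (-2.73 ± 0.24), Gstm5 (-2.26 ± 0.21), Gstm2 (-1.83 ± 0.29) and Mgst1, a microsomal transferase (-1.64 ± 0.46), each called by limma. In E2+3-MC against 3-MC, 3 of the 15 in the list fell (1.39% of all genes were called lower) and 0 rose (2 at an unadjusted p under 0.05). Those that fell were Gstm5 (-1.60 ± 0.21), Gstm1 (-1.39 ± 0.24) and Gstm2 (-0.99 ± 0.29, limma adjusted p = 0.042). Mgst1 was at 0.08 ± 0.46 there. Gstm6l, a mu class gene that the list does not hold, also fell in both comparisons (-2.74 ± 0.32 and -1.93 ± 0.32). After quantile normalization 7 fell and 2 rose in that comparison, and 9 fell and 2 rose against vehicle. Leaving out 1 rat at a time gave 7 to 9 falls against vehicle and 2 to 4 in the second comparison, and 2 rose in each without vehicle rat 1.

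The other mu class genes gave a range of values. Gstm4 fell with E2 (-0.87 ± 0.19) and was at -0.28 ± 0.19 in the second comparison, with overlapping groups. Gstm6 was left out as dim on average, and without that filter its differences were -2.31 ± 0.40 and -1.68 ± 0.40, with no overlap in either. Gstm3, also dim, was at -0.42 ± 0.16 and -0.04 ± 0.16. Mu class sequences are alike and signal shared between their probe sets was not tested, so the sizes for single members of the class are uncertain.

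In the fit of all 12 arrays as deposited, the genes called in the list of glutathione synthesis and recycling were higher. That list also holds peroxidases, which use glutathione, genes of its breakdown and thioredoxin genes. Of 23 tested, 9 rose with E2 against vehicle (8.7% of all genes were called higher) and 0 fell (2 at an unadjusted p under 0.05). The median of the 23 was 0.44, against -0.11 for all genes. In E2+3-MC against 3-MC, 9 rose (6.82% of all genes) and 0 fell (0 at an unadjusted p under 0.05). The median there was 0.51, against 0.08 for all genes. Gpx2, a glutathione peroxidase of epithelia, rose by 2.94 ± 0.27 and by 2.85 ± 0.27. Gpx1, the common cytosolic peroxidase, rose by 1.76 ± 0.31 and 1.55 ± 0.31, Ggct, a γ-glutamyl cyclotransferase, by 1.60 ± 0.27 and 0.98 ± 0.27, and Gpx7, a peroxidase of the endoplasmic reticulum, by 1.55 ± 0.28 and 1.52 ± 0.28. Gsr, which reduces oxidized glutathione, rose by 1.16 ± 0.24 and 1.17 ± 0.24. Of the genes that make glutathione, Gclm rose by 1.00 ± 0.26 and 1.31 ± 0.26. Gclc (0.63 ± 0.22 and 0.60 ± 0.22) and Gss (0.44 ± 0.22 and 0.28 ± 0.22) were not called in either comparison. With 1 rat left out at a time, there were 8 to 13 rises and 0 to 2 falls against vehicle, and 6 to 12 rises and 0 falls in the second comparison. After quantile normalization 12 rose and 2 fell against vehicle, and 11 rose and 0 fell in the second comparison.

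**Figure D2:**
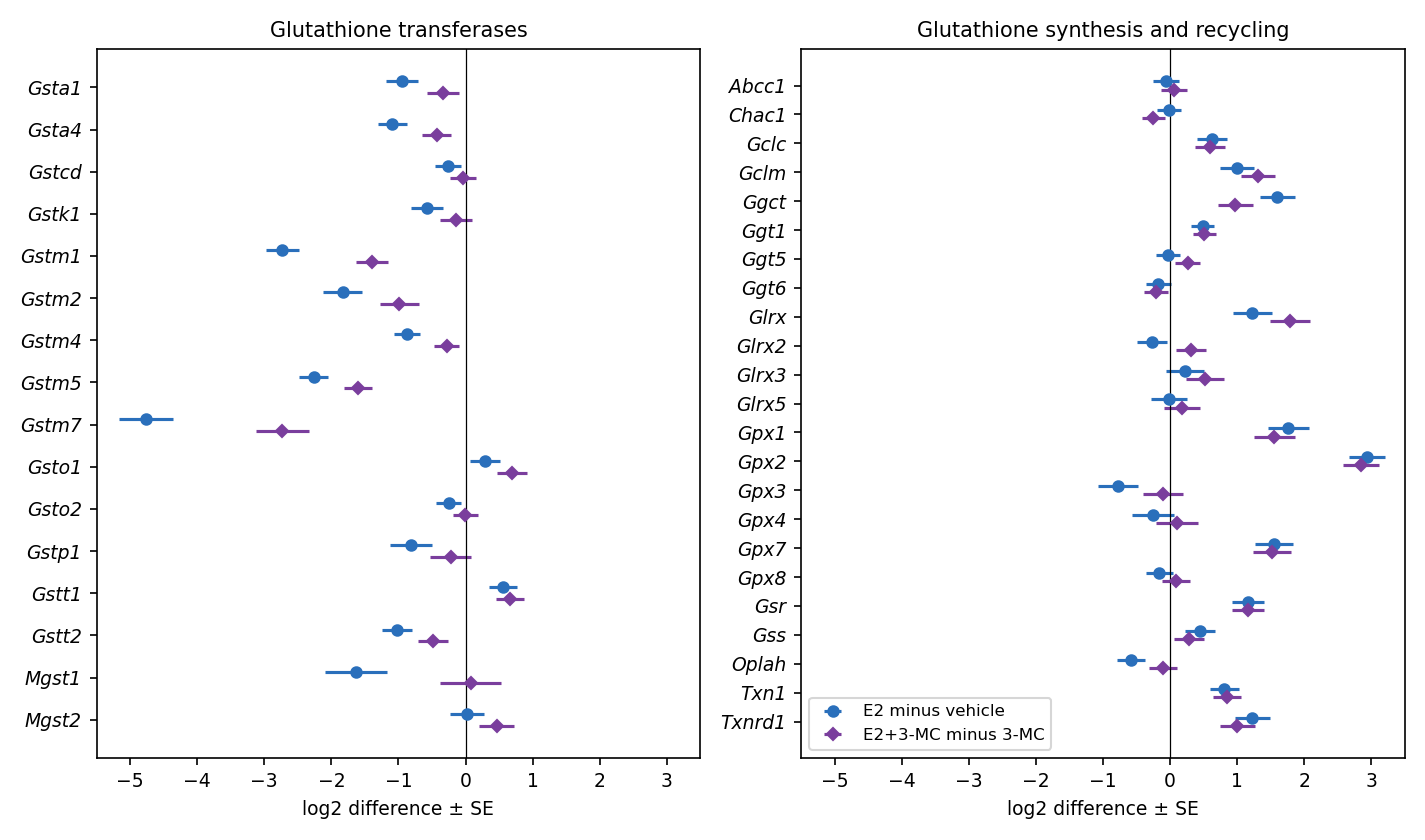
Log2 difference ± SE for glutathione transferases (left, Gstm7 included) and for the glutathione synthesis and recycling list (right, peroxidases and thioredoxin genes included). Circles are E2 minus vehicle and diamonds E2+3-MC minus 3-MC, n = 3 rats per group. Gstm7 has the lowest value of the left panel in both comparisons, at -4.77 and -2.73, and Gpx2 the highest of the right panel, at 2.94 and 2.85.

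Around Gulo, the other genes of ascorbate synthesis and transport rose or did not pass the test. Of 15 tested, 3 rose with E2 against vehicle (8.7% of all genes were called higher) and 0 fell (1 at an unadjusted p under 0.05), and 2 rose (6.82% of all genes) and 0 fell (1 at an unadjusted p under 0.05) in E2+3-MC against 3-MC. After quantile normalization 6 rose and 1 fell against vehicle, and 5 rose and 1 fell in the second comparison. Those that rose against vehicle were Glrx, a glutaredoxin that can reduce dehydroascorbate (1.23 ± 0.29), Slc2a1, a glucose transporter that also carries dehydroascorbate (1.20 ± 0.25), and Gusb, a lysosomal glucuronidase (0.80 ± 0.19). This list shares Glrx with the glutathione synthesis and recycling list, where its rises are also counted, and Gsto1 and Gsto2 with the transferase list. In the second comparison Glrx was at 1.79 ± 0.29 and Gusb at 0.64 ± 0.19, both called, and Slc2a1 at 0.74 ± 0.25 did not pass. The Slc23 transporters of the list were not called in either comparison. Slc23a1 was at -0.60 ± 0.20 and -0.43 ± 0.20, and Slc23a2 at -0.39 ± 0.22 and 0.04 ± 0.22. Slc23a3 was at -0.17 ± 0.19 and -0.31 ± 0.19. Rises numbered 3 to 8 against vehicle over the fits that leave out 1 rat, and 1 to 7 in the second comparison, with the highest counts, 8 and 7, when vehicle rat 1 was left out, which also gave 1 fall against vehicle. Among 15 oxygenases that use ascorbate as a cofactor, 2 fell against vehicle (9.44% of all genes), Pam (-0.88 ± 0.29), which amidates peptide hormones, and P3h2, a collagen prolyl hydroxylase (-0.78 ± 0.23). In the second comparison 0 of the 15 were called (4 higher at an unadjusted p under 0.05), and after quantile normalization 2 fell and 3 rose there. Falls numbered 0 to 2 against vehicle when single rats were left out and 0 in the second comparison, and without vehicle rat 1 3 rose against vehicle and 4 in the second comparison.

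The genes with functions near that of Them5 were examined in the same way. Them5 removes coenzyme A from long-chain acyl groups and has been tied to the remodelling of cardiolipin, a lipid of the inner mitochondrial membrane. Of 9 other acyl-CoA thioesterases tested, 2 fell with E2 against vehicle (9.44% of all genes were called lower), Acot13 (-0.79 ± 0.18) and Acot2 (-0.77 ± 0.24), and 0 rose. At an unadjusted p under 0.05, 5 were lower and 0 higher. The median of the 9 was -0.46, against -0.11 for all genes, and 0.0001 against 0.08 in E2+3-MC against 3-MC. In E2+3-MC against 3-MC 0 of the 9 were called (1 higher at an unadjusted p under 0.05), and after quantile normalization 3 fell and 1 rose. Leaving out 1 rat at a time gave 1 to 4 falls against vehicle, the highest without vehicle rat 3, and 1 rise in each comparison without vehicle rat 1. Them4, its closest relative, was at -0.63 ± 0.24 (limma adjusted p = 0.073) and -0.30 ± 0.24. Of 12 genes of cardiolipin synthesis and remodelling limma called 0 in both comparisons (2 and 1 at an unadjusted p under 0.05), and without vehicle rat 1 3 rose against vehicle. The differences with the largest size in that list were those of Prelid1 (0.81), which carries phosphatidic acid into mitochondria, and Cds2 (-0.56), which makes CDP-diacylglycerol, neither called.

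Fatty acid synthesis gave 3 falls and 1 rise among 20 genes tested against vehicle, where 9.44% of all genes were called lower and 8.7% higher. Scd, a fatty acid desaturase, was at -3.64 ± 0.88, Thrsp, a lipogenic nuclear protein, at -3.35 ± 0.70, Acsl3 at -0.74 ± 0.25 and Acsl5 at 1.05 ± 0.26, the last 2 both ligases that load fatty acids onto coenzyme A. In E2+3-MC against 3-MC, Acsl5 rose (0.88 ± 0.26) and 0 fell (0 at an unadjusted p under 0.05). After quantile normalization 5 fell and 2 rose against vehicle, and 1 fell and 2 rose in the second comparison. The fits without 1 rat gave 2 to 7 falls against vehicle, the highest without vehicle rat 3, and 1 to 4 rises against vehicle and 0 to 5 in the second comparison, the highest without vehicle rat 1.

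Genes that work with Cadps were called in both directions. Of 27 tested genes of dense-core vesicle priming and release, 5 rose and 3 fell with E2 against vehicle (8.7% and 9.44% of all genes), where those with the largest differences were Syt11, a synaptotagmin (-1.26 ± 0.30), Vamp8, a SNARE of secretory granules (1.19 ± 0.32), and the small GTPases Rab3d (1.18 ± 0.28) and Rab3a (-1.14 ± 0.27). In E2+3-MC against 3-MC 0 of the 27 were called (6 higher and 2 lower at an unadjusted p under 0.05), with 3 higher and 4 lower after quantile normalization and 6 higher and 3 lower without vehicle rat 1. Against vehicle, leaving out 1 rat at a time gave 1 to 8 rises, the highest without vehicle rat 1 and the lowest without vehicle rat 3 or E2 rat 1, and 1 to 5 falls, the lowest without E2 rat 3 and the highest without E2 rat 1. Of 8 tested cargo and processing genes, 3 fell against vehicle (9.44% of all genes) and 0 rose. Those that fell were Penk, the enkephalin precursor (-1.56 ± 0.34), Cpe, a carboxypeptidase of peptide hormone processing (-0.94 ± 0.24), and Pam. In the second comparison 0 of the 8 were called (2 lower at an unadjusted p under 0.05), with Penk at -0.83 ± 0.34, and 3 were called lower after quantile normalization and 1 without vehicle rat 1. Leaving out 1 rat at a time gave 1 to 4 falls against vehicle, the lowest without vehicle rat 1, E2 rat 2 or E2 rat 3.

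Markers of cell types in which these genes are known were then set beside the 4 falls. Gulo is a liver gene, and of 18 hepatocyte markers measured 13 to 14 were under the dim limit in each group, with means of 6.01 to 6.52 over the 12 rats. Alb, encoding albumin, fell with E2 against vehicle (-1.50 ± 0.22) from 116, 134 and 143.5 to 55.6, 23.7 and 33.2, and was at -0.54 ± 0.22, not called, in the second comparison, while Serpina1, an antiprotease, rose by 3.85 and 3.70. Cadps is a gene of neurons and endocrine cells, and of 18 such markers 10 to 12 were under the limit in each group, with means of 6.23 to 6.60. Of the 7 tested, Gap43, a growth cone protein, fell in both comparisons (-1.23 ± 0.35 and -1.17 ± 0.35), and the other 6 were not called. The call of a lower marker was lost against vehicle without any 1 of the E2 rats, and in the second comparison without any 1 rat other than vehicle rat 1 or 3. After quantile normalization 2 neuronal markers rose against vehicle and 1 in the second comparison, where 3 rose without vehicle rat 1.

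Adipocyte markers varied most between rats. The mean of 14 markers was 9.73, 7.53 and 7.90 in vehicle, 6.43, 7.08 and 8.51 in 3-MC, 6.61, 7.13 and 7.04 in E2, and 7.86, 8.85 and 7.42 in E2+3-MC rats. Of 11 tested, 8 fell against vehicle (9.44% of all genes were called lower) and 0 rose (0 at an unadjusted p under 0.05). Adipoq was higher there by value (1.49 ± 0.73, not called), with 1798 to 2109 in E2 rats and 336 to 2342 in vehicle rats. The count of falls was 5 without vehicle rat 1, 2 without E2 rat 1 and 1 without E2 rat 2 or rat 3. Without vehicle rat 1, 1 marker was called higher. In E2+3-MC against 3-MC 0 fell (0 at an unadjusted p under 0.05) and 1 rose, Adipoq (3.04 ± 0.73), which was not called without 3-MC rat 1, 3-MC rat 2 or E2+3-MC rat 3. Rat by rat, the readings of the 4 genes ran in the order of this mean in some groups and not in others: in E2+3-MC rats Gstm7 (145, 381 and 65.6) and Cadps (26.2, 63.2 and 14.9) did, and vehicle rat 1, the highest of its group in this mean, was also the highest for Them5, Gulo and Gstm7. In the 3-MC group rat 1 had the lowest mean and the highest readings of its group for Gulo (610), Gstm7 (1391) and Cadps (520.5). Over all genes, 8.7% were called higher and 9.44% lower against vehicle, and 6.82% and 1.39% in the second comparison. Of 14 epithelial markers tested, luminal and glandular together, 9 rose and 1 fell against vehicle, and 8 rose and 1 fell in the second comparison. The marker that fell was Foxa2 in both (-0.82 ± 0.23 and -0.78 ± 0.23), and leaving out 1 rat at a time gave 0 to 1 falls in each. Of 12 endothelial markers, 9 fell against vehicle. In the second comparison 0 of the 12 were called (8 lower at an unadjusted p under 0.05). Without vehicle rat 1, 7 endothelial markers were called lower there, and 9 after quantile normalization. Against vehicle, 3 of 4 blood markers fell, 3 of 6 mesothelial markers fell and 1 rose, and 5 of 11 macrophage markers rose. In the second comparison 0 blood and 0 mesothelial markers fell, 1 mesothelial marker rose and 5 macrophage markers rose. After quantile normalization 3 mesothelial markers fell there. The part of these cell types in the 4 falls was not tested.

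The 10 next falls after the 4 genes divided into 2 kinds in the second set of rats. Scd, Fabp4, Car3 and Thrsp belong to the adipocyte or fatty acid lists, and 0 of these 4 was called in E2+3-MC against 3-MC (0.84, 1.86, 1.91 and -0.13). Fabp4, a fatty acid carrier of fat cells, read 4665, 700 and 1289 in vehicle and 18.4, 370 and 2581 in 3-MC rats, so that the highest of the 3-MC rats was 140 times the lowest, and the widest such ratio among the 4 chosen genes was 5.81. The other 6 were all called lower: Wif1 (-3.23 ± 0.29), Clu, encoding the chaperone clusterin (-2.72 ± 0.23), Kcnip1, a potassium channel partner (-2.31 ± 0.32), the metallothioneins Mt3 (-2.13 ± 0.29) and Mt2A (-1.58 ± 0.27), and Aldh1a1, a retinaldehyde dehydrogenase (-1.97 ± 0.24). Of the 959 genes called lower against vehicle, 139 (14.5%) were also called lower in E2+3-MC against 3-MC, and these made up 98.6% of the 141 called there. After quantile normalization 1069 genes were lower in both, 54.2% of 1974 and 84.4% of 1267, and without vehicle rat 1 394 were, 34.9% of 1129 and 90.2% of 437. Of all genes tested, 9.44% were called lower against vehicle and 1.39% in E2+3-MC against 3-MC. The 2 comparisons share no rats, but both sets of calls come from the same fit. Each gene has the same SE in both, from a spread estimated over all arrays, and passed the same filter. The 2 sets of calls are therefore not independent, and the overlap is a description.

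**Figure D3:**
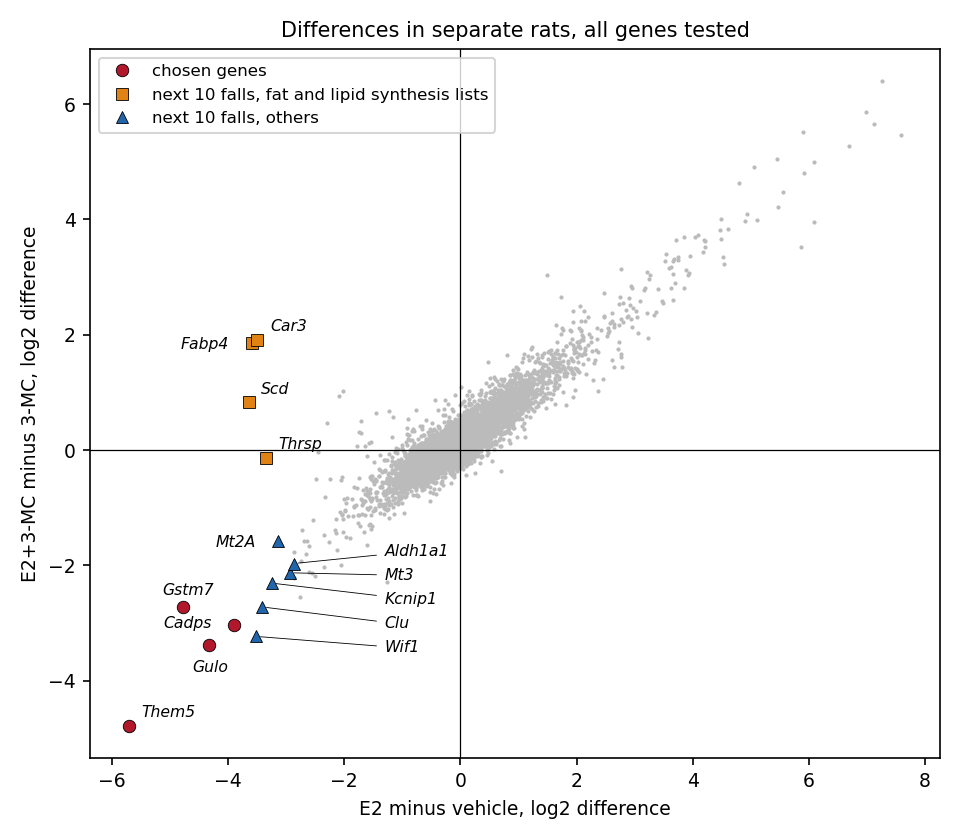
Log2 difference of each of the 10154 genes tested, E2 minus vehicle on the horizontal axis and E2+3-MC minus 3-MC on the vertical axis, in separate rats. Circles are Them5, Gulo, Gstm7 and Cadps, at the lower left, triangles are the 6 of the next 10 falls that were called lower on both axes, and squares are Scd, Fabp4, Car3 and Thrsp, which lie at -0.13 to 1.91 on the vertical axis.

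Over all 12 arrays, the genes whose levels ran most like those of the 4 were found by Pearson's r. Them5 and Gulo were each other's closest match (0.995), and both were followed by Clu (0.989 and 0.993), Kcna2, a potassium channel subunit (0.987 and 0.990), and Aldh1a1 (0.987 and 0.986). The fifth was Atp2b2, a calcium pump, for Them5 (0.984) and Gstm5 for Gulo (0.986). Gstm7 ran most like Arnt2, a dimerization partner of the AhR family (0.993), then Tnfrsf19 (0.988), Ppp2r2b (0.988), Slc44a3 (0.984) and Bmpr1b, a bone morphogenetic protein receptor (0.983). Cadps ran most like Dgkb, a diacylglycerol kinase (0.993), Snhg11 (0.992), 4930426D05Rikl (0.992), Ppp2r2b (0.990) and Gli1, a transcription factor of hedgehog signalling (0.989). The number of genes with r above 0.95 was 52 for Them5, 58 for Gulo, 81 for Gstm7 and 53 for Cadps, and the median r over all genes was 0.09 to 0.15. Any gene with a large E2 difference shares most of this likeness, and the arrays share their normalization.

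As with Gstm7, Arnt2 had readings that overlapped between vehicle (502.5 to 821) and 3-MC rats (598.5 to 830). Its mean intensity was 649 in vehicle, 694 in 3-MC, 90.4 in E2 and 236 in E2+3-MC rats, and its differences were -2.64 ± 0.29 against vehicle and -1.58 ± 0.29 in the second comparison, both called.

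The genes next to the 4 on the chromosomes were looked at after these values had been seen, from the order of protein-coding genes in RefSeq GRCr8, with 5 on each side. Gulo and Clu are adjacent on chromosome 15. Clu read 2016 to 3749 in vehicle and 203 to 266 in E2 rats, and 1784 to 2485 in 3-MC and 296 to 325 in E2+3-MC rats, with no overlap in either comparison. Its differences were -3.41 ± 0.23 (limma adjusted p = 1.76e-08) and -2.72 ± 0.23 (limma adjusted p = 4.26e-07). Of the 6 neighbours of Gulo tested, 3 fell against vehicle (9.44% of all genes) and 1, Clu, in the second comparison (1.39%). Beside Clu, those that fell against vehicle were Ephx2, an epoxide hydrolase (-0.98 ± 0.24), and Scara3 (-0.85 ± 0.28). Gulo and Cadps are both on chromosome 15, and Them5 and Gstm7 both on chromosome 2, in each case outside the other's 5 nearest genes on either side.

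Gstm7 lies within the mu class cluster. Of its 7 tested neighbours, Gstm5, Gstm6l, Gstm2 and Gstm1 fell in both comparisons, where 9.44% and 1.39% of all genes were called lower. Gstm5, Gstm2 and Gstm1 are the same falls already counted in the transferase list. Signal shared between mu class probe sets was not tested. Eps8l3, just beyond the cluster, rose in both (1.21 ± 0.22 and 1.29 ± 0.22), and Csf1 and Ahcyl1, further out on that side, were at 0.03 and -0.04 against vehicle, not called. Them5 had 2 tested neighbours, Them4 and Lingo4 (-0.34 ± 0.21 and -0.16 ± 0.21), and 0 were called in either comparison. Cadps had 2, of which Ptprg, a receptor tyrosine phosphatase, fell against vehicle (-0.82 ± 0.26) and was at -0.42 ± 0.26, not called, in the second comparison, and Cep15 was at -0.20 and 0.04.

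**Figure D4:**
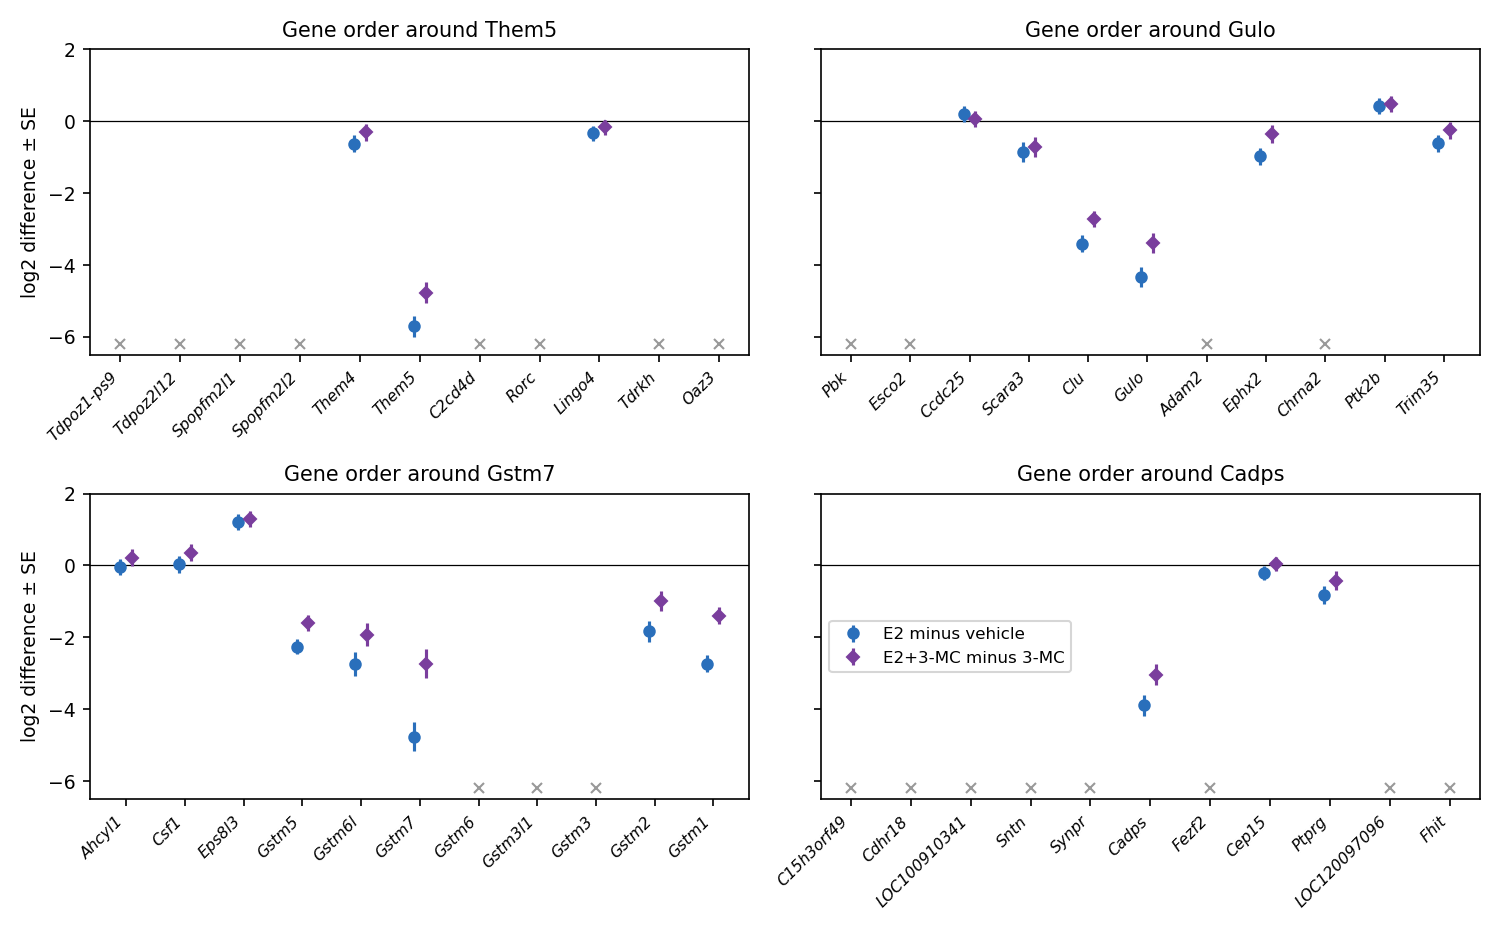
Log2 difference ± SE for each of the 4 genes (centre of its panel) and the 5 protein-coding genes on each side in RefSeq order, for E2 minus vehicle (circles) and E2+3-MC minus 3-MC (diamonds), n = 3 rats per group. Genes are evenly spaced in order, not by distance, and crosses at the foot of a panel mark genes not tested. Clu beside Gulo and the mu class genes beside Gstm7 are low in both comparisons, and the tested neighbours of Them5 and Cadps lie between -0.82 and 0.04.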

How the data were processed

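Total uterus RNA from 12 rats was hybridized to Affymetrix arrays, 1 per rat. The authors deposited linear intensity values per probe set, made with Affymetrix Expression Console and PLIER per the submitters' processing notes; the sources used here give neither their versions nor any normalization between arrays. Of 29214 probe sets, 15310 name 1 gene, 323 several and 13581 none. Each of 14506 genes was read from its probe set with the highest mean, values became log2(intensity + 16), and the dimmest 30% were left out. limma 3.58.1 (R 4.3.3) fitted 1 mean per group over 12 arrays, with Benjamini-Hochberg adjustment over 10154 genes and calls at 0.05; the fit was tested on simulated data. Precision is limited by having 3 arrays in each group. The 4 genes and all gene lists were chosen with earlier results of these data known, so a list's count is not independent evidence. Genes named are the 4, the 10 next falls, and up to 4 called genes per pathway list (2 by value where none was called). Also named are up to 2 genes per cell type list, 5 genes most alike per chosen gene, neighbours, close relatives and control genes. Gsr, Gclm, Gclc and Gss were added beyond this rule, as genes that make or reduce glutathione. Slc23a1, Slc23a2 and Slc23a3 were added as transporters of the ascorbate list, and Gsto1 and Gsto2 as genes shared between lists. Gene IDs matched RefSeq GRCr8 for 14480 genes.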

Additional observations from a re-analysis of the deposited data

How the results depend on the processing

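In E2+3-MC against 3-MC, Them5 and Gstm7 kept their direction and call in all 22 alternatives run and Gulo and Cadps in all 21 (both were dropped as dim when 50% of genes were left out). Differences ran from -5.52 to -3.68 for Them5, -3.94 to -2.47 for Gulo, -3.33 to -2.19 for Gstm7 and -3.61 to -2.17 for Cadps, and the highest limma adjusted p was 0.00315, for Gstm7 without 3-MC rat 1. Counts of genes called depended on the setting, and the cause was not tested. For E2 minus vehicle the main 1842 became 3901 after quantile normalization, 1183 with 50% left out and 965 from the 6 arrays of the comparison alone, and leaving out 1 rat gave 986 (E2 rat 3) to 3541 (vehicle rat 1), with 1151 without E2 rat 2. For E2+3-MC minus 3-MC the main 834 became 2652 after quantile normalization and 2253 from 6 arrays, and leaving out 1 rat gave 413 (3-MC rat 2) to 2176 (vehicle rat 1). Median centring gave 801 lower and 1535 higher against vehicle and 262 lower and 894 higher in the second comparison. Counts over the gene lists stayed within 1.5 times in 1793 of 2112 values, but many of these counts were 0 or 1, so that share says little. With 1 rat left out, adipocyte falls against vehicle ran from 1 to 8 and glutathione transferase falls from 7 to 9. Endothelial falls in the second comparison ran from 0 to 7. Rats share only a number across groups (r of same-numbered deviations -0.27 to 0.24); with the replicate block 2545 and 1140 genes were called, and the 4 genes had limma adjusted p of 1.25e-07 (Them5), 1.01e-06 (Gulo), 0.000196 (Gstm7) and 4.32e-06 (Cadps). Readings under the dim limit bound how far the E2 levels can be resolved.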
